A study of Mus musculus with 60 samples.

Results

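Hypothalamus (HYP) and brainstem (BS) of vehicle injected mice were compared across the 770 genes of the nanoString nCounter Mouse Neuroinflammation Panel v1, which counts barcoded probes hybridised to total RNA without amplification. The members are all vehicle samples of these regions that have values, 7 HYP and 9 BS samples, which are 16 of the 56 samples with values and of the 60 listed in the series. They came from 10 mice, and 6 of these mice (2, 4, 6, 22, 28 and 30) gave both regions, whereas mouse 8 gave only HYP and mice 10, 12 and 32 gave only BS. The 4 listed samples without values are all from these vehicle groups, which the labels describe as outliers removed on their raw readings. All mice were female Balb/C, 13 weeks old at collection, housed singly under 14 h of light and 10 h of dark, and each had received 0.1 mL DMEM, the vehicle, in the inguinal mammary glands 25 days earlier. Mice were perfused with phosphate-buffered saline and collected at mid-dark (ZT19; 3 HYP and 4 BS) or mid-light (ZT7; 4 HYP and 5 BS), where ZT counts hours from lights on. The tumor-bearing mice used for comparison (10 HYP and 10 BS samples) were treated alike but injected with 67NR cells, a non-metastatic mouse mammary carcinoma line. Values are log2 normalised expression values, and every difference is HYP minus BS on that scale, so that a difference of 1 is a doubling in HYP.

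The hypothalamus is a forebrain structure that holds many small groups of GABAergic, glutamatergic and peptidergic neurons and governs feeding, temperature, sleep and hormone release. The brainstem joins the forebrain to the spinal cord, carries long myelinated tracts, and holds the cranial nerve nuclei and the centres for breathing and circulation. Both contain the same glial classes, namely oligodendrocytes that make myelin, astrocytes, and microglia, the resident macrophages of the brain. In RNA from a whole dissected region, fewer cells of a type and less RNA per cell cannot be told apart.

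Region was the main axis of variation among the 16 samples. The first principal component held 57.5% of the variance and placed all HYP samples on one side and all BS samples on the other, and the second held 6.97%. Of 770 genes, 415 (53.9%) differed between the regions (adjusted p under 0.05), 225 (29.2%) higher in HYP and 190 (24.7%) higher in BS, and 451 (58.6%) had an unadjusted p under 0.05. Subtracting the mean of the panel reference genes from each sample, in place of the deposited scale, gave 417 called genes. Of these, 336 were among the 415. The split turned to 146 higher in HYP (35% of calls against 54.2%), because the median difference over all genes moved from 0.02 to -0.10. Small differences in favour of HYP therefore depend on the scale. Most differences were small: 264 called genes differed by under 0.5, 105 by 0.5 to 1, 39 by 1 to 2 and 7 by 2 or more. The 46 called genes that differed by at least 1 (5.97% of the panel) were 19 higher in HYP (2.47%) and 27 higher in BS (3.51%). All samples of one region exceeded all samples of the other for 191 genes (24.8%), 100 higher in HYP (13%) and 91 higher in BS (11.8%), and 325 of the 415 called genes had the same sign in each of the 6 mice with both regions.

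The deposited scale has a top, a bottom and a background that bear on single genes. Quantile normalization gives each sample the same set of values, so the most abundant gene of a sample always reads 15.36. The lowest value, -0.37, was reached by 6 genes. Kdm5d and Uty, which lie on the Y chromosome and are absent from female mice, read 3.04 to 5.09, so a reading in that range need not reflect a transcript of the named gene. Both nevertheless differed between regions, at -0.84 ± 0.18 (SE, adjusted p = 0.00114) for Kdm5d and -0.80 ± 0.12 (adjusted p = 3.89e-05) for Uty. Among the 138 genes with a mean under 5, 15.9% were called, compared with 62.2% of the others.

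Total RNA was more concentrated in BS (lowest 737.3, median 2347, highest 2976 ng/µl) than in HYP (419.9, 690.9 and 1158 ng/µl), and the A260/A280 ratio was 1.72 to 2.01 in BS and 1.80 to 2.01 in HYP. RNA concentration and region therefore move together, and the part of concentration in the differences was not tested. Without the 2 BS samples of lowest concentration (mice 6 and 28), 375 genes were called, and without the 2 of lowest A260/A280 (mice 2 and 30), 408. Leaving out mice 6 and 28 put every BS sample, at 2239 ng/µl or more, above every HYP sample. The count of 375 is therefore no test of concentration.

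**Figure D1:**
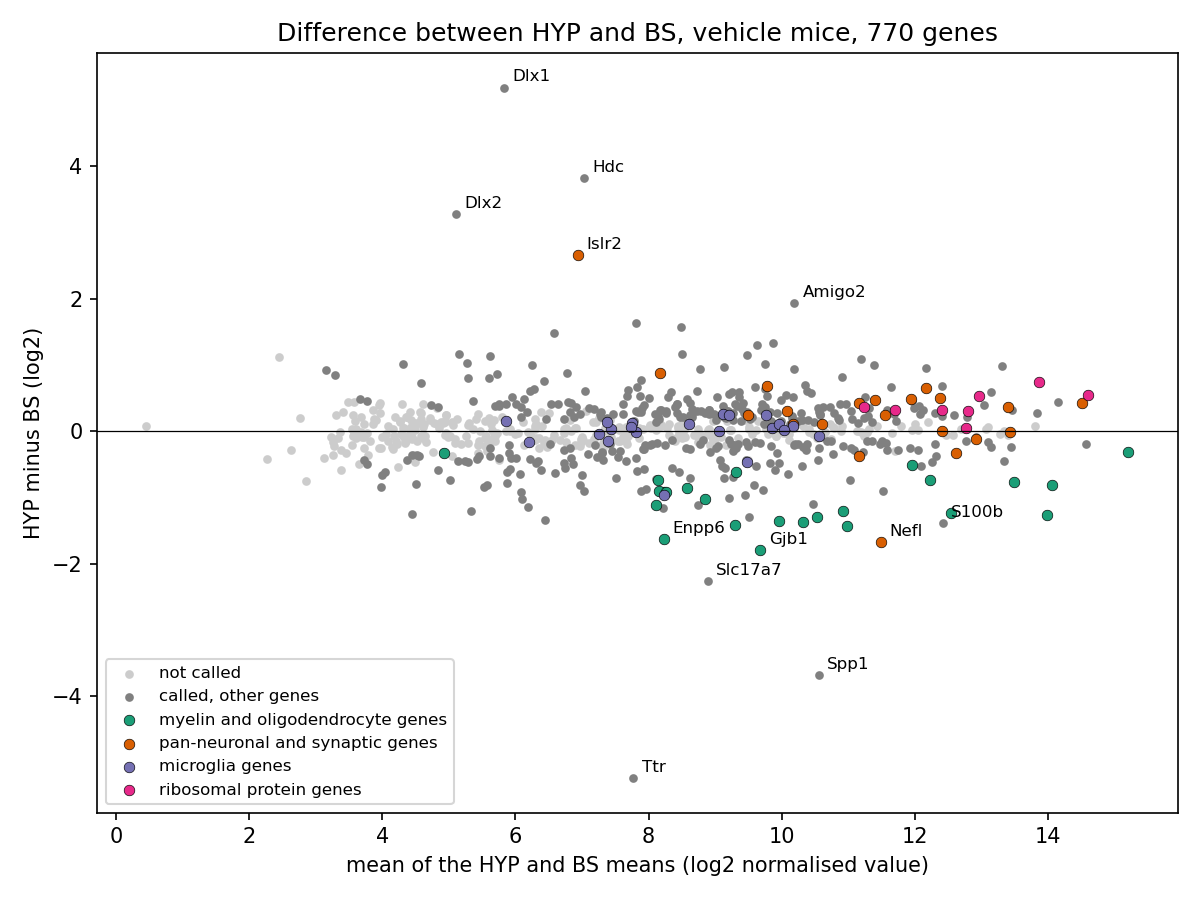
Difference between HYP and BS (y axis, log2) against the mean of the 2 region means (x axis, log2 normalised value) for 770 genes of vehicle mice; each point is a gene, dark grey points are called and 4 gene lists are coloured. The myelin genes all lie below 0 and most microglia genes lie near 0, while Dlx1 (5.19) and Ttr (-5.24) lie farthest from it.

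The genes furthest above BS in HYP were led by the homeobox factors Dlx1 and Dlx2, which specify and maintain GABAergic neurons of the forebrain. Dlx1 was at 8.11, 8.34 and 9.02 (lowest, median and highest) in the 7 HYP samples and at 2.19, 3.23 and 3.96 in the 9 BS samples. Dlx2 was at 6.24, 6.77 and 7.08 in HYP and at 1.87, 3.71 and 4.04 in BS. No HYP sample overlapped a BS sample for either gene, and in BS both read no higher than the Y-linked genes did, so their folds have no firm base. The differences were 5.19 ± 0.18 for Dlx1 (SE, adjusted p = 2.15e-11) and 3.27 ± 0.25 for Dlx2 (adjusted p = 5.99e-08). The hippocampus (HPC) of the 10 vehicle mice lay between, at 7.24 ± 0.31 for Dlx1 and 5.83 ± 0.30 for Dlx2 (mean ± SD).

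Dlx1 and Dlx2 are neighbours on mouse chromosome 2, where their start sites lie 17309 bases apart on opposite strands. Their promoters are shown because these neighbouring genes are among the 3 furthest above BS; the sequences are the 250 bases before each start in RefSeq's GRCm38.p6, at chr2:71529195-71529444 (plus strand) and chr2:71546755-71547004 (minus strand), written 5′ to 3′ along the gene with CG dinucleotides in capitals.
Dlx1: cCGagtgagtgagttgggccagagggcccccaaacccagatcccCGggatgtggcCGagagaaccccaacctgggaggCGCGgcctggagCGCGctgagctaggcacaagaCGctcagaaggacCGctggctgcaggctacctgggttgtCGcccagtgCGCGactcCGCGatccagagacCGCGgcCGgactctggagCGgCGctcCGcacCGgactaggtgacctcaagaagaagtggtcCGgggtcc
Dlx2: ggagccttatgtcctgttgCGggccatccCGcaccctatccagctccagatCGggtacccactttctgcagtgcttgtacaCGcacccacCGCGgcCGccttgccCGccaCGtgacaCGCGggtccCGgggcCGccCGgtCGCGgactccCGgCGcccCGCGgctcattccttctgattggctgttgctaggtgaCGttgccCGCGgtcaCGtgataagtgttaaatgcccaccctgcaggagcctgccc
The windows hold 22 and 24 CG dinucleotides, compared with a median of 6 over the promoter windows of all genes and 13 over those of panel genes. The homeodomain core TAATTA was found on neither strand of these 2 windows; it occurs in 5.65% of all genes' windows.

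Hdc, histidine decarboxylase, makes histamine, and in the brain its neurons lie in the tuberomammillary nucleus of the hypothalamus. It was at 8.27, 8.96 and 9.60 in HYP and at 4.59, 5.05 and 5.59 in BS. In BS, 5 of 9 samples read within the range of the Y-linked genes, so the fold has no firm base. The regions did not overlap, and the difference was 3.82 ± 0.18 (adjusted p = 3.42e-10), with HPC at 4.33 ± 0.29. Of the mast cell genes on the panel, Cpa3 was at 3.86 to 4.37 in HYP and 3.57 to 4.56 in BS, and Ms4a2 at 2.79 to 3.78 and 3.04 to 4.16. Mast cells also make histamine, and their part in the result was not tested.

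Adhesion and leucine-rich repeat proteins of neurons came next. Islr2, which supports axon growth and branching, was at 8.12, 8.31 and 8.47 in HYP and at 5.27, 5.59 and 6.05 in BS, a difference of 2.66 ± 0.10 (6.31-fold, adjusted p = 7.27e-11). Amigo2, a neuronal adhesion protein, was at 10.83, 11.08 and 11.55 in HYP and at 8.88, 9.25 and 9.53 in BS, a difference of 1.93 ± 0.11 (3.81-fold, adjusted p = 3.62e-09). Lrrc3, another leucine-rich repeat protein, differed by 1.63 ± 0.13. None of the 3 overlapped between regions. HPC was higher still than HYP for Islr2 (10.44 ± 0.24) but not for Amigo2 (9.81 ± 0.31) or Lrrc3 (7.18 ± 0.16).

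A pair of Bcl2 family members stood among the 10 genes furthest above BS that kept their sign in all 6 mice with both regions. Hrk, a BH3-only protein that promotes neuronal apoptosis, was at 6.79, 7.44 and 7.50 in HYP and at 5.42, 5.88 and 6.21 in BS, a difference of 1.48 ± 0.11 (adjusted p = 3.61e-08). Bok, a pore-forming relative of Bax, was at 8.51, 8.92 and 9.73 in HYP, whereas the 9 BS samples lay within 7.86 to 8.02, a difference of 1.16 ± 0.15 (adjusted p = 1.13e-05). HPC exceeded HYP for both, at 9.16 ± 0.17 and 10.07 ± 0.25.

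**Figure D2:**
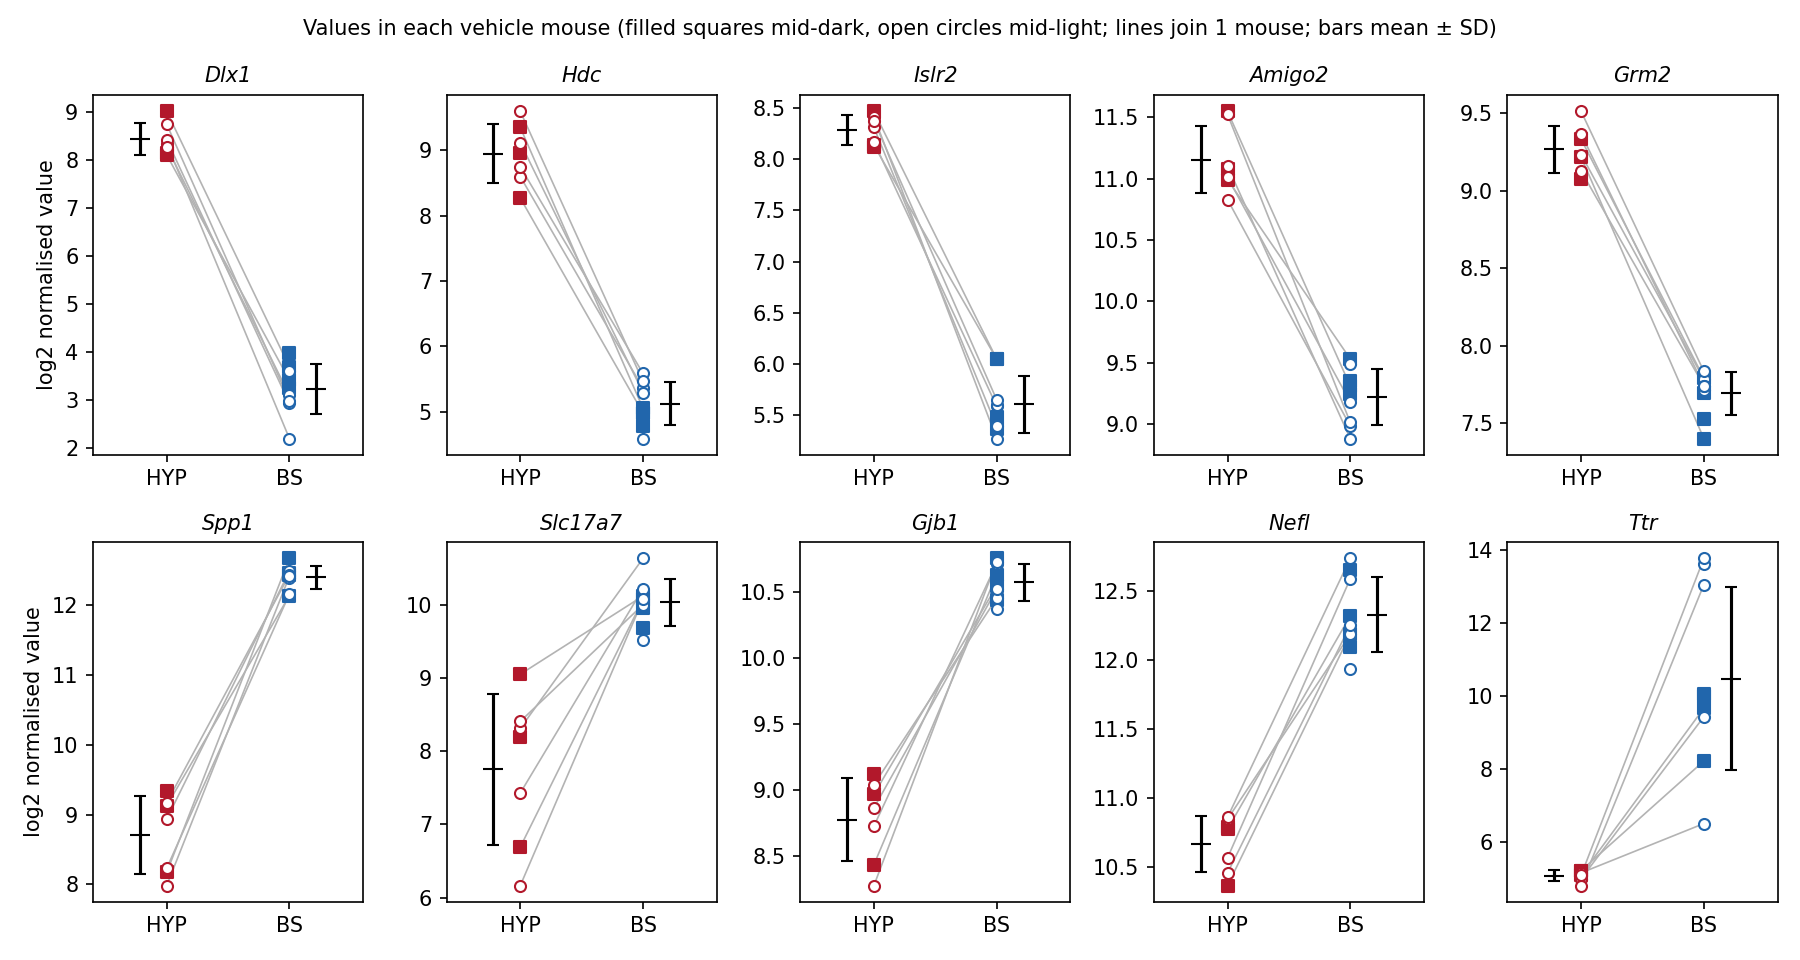
Log2 normalised values (y axis) of 10 genes in each vehicle mouse, HYP in red and BS in blue; filled squares are mid-dark, open circles mid-light, lines join the 2 regions of a mouse and black bars are the mean ± SD of 7 HYP or 9 BS samples. The regions do not overlap for any of the 10 genes, and Ttr spreads from 6.49 to 13.77 in BS while HYP stays within 4.79 to 5.20.

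All 10 glutamate receptor and transmitter transporter genes on the panel differed, compared with 53.9% of all genes. Of the 10, 6 were higher in HYP and 4 higher in BS (median 0.31, compared with 0.02 over all genes). Among the AMPA receptor subunits, which carry fast excitation, Gria1 (11.59 to 11.90 in HYP, 10.49 to 10.94 in BS) and Gria2 (11.69 to 12.06 and 10.73 to 11.19) were higher in HYP, by 1.08 ± 0.07 and 1.00 ± 0.08. Gria4 went the other way, at 11.93 to 12.14 in HYP and 12.25 to 12.83 in BS (-0.47 ± 0.06). The NMDA receptor subunits were divided likewise. Grin2b was at 10.32, 10.44 and 10.86 in HYP and at 9.03, 9.20 and 9.36 in BS (1.34 ± 0.08, adjusted p = 5.36e-09), and Grin2a was at 7.36, 7.59 and 8.03 in HYP and at 7.75, 7.99 and 8.21 in BS (-0.40 ± 0.09, adjusted p = 0.0013). Of the metabotropic receptors, Grm2 was higher in HYP by 1.58 ± 0.06 (9.07 to 9.51 against 7.40 to 7.83) and Grm3 was higher in BS, at -0.35 ± 0.07.

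The vesicular transporters that load glutamate into synaptic vesicles were the clearest case of opposite direction. Slc17a6 (VGLUT2), the main form in diencephalon and brainstem, was abundant in both regions, at 13.04, 13.22 and 13.41 in HYP and at 12.52, 12.87 and 12.94 in BS (0.39 ± 0.07, adjusted p = 0.000275), and low in HPC (8.55 ± 0.82). Slc17a7 (VGLUT1), the main form in cortex, hippocampus and cerebellum, was at 6.17, 8.20 and 9.05 in HYP and at 9.52, 10.07 and 10.63 in BS, a difference of -2.26 ± 0.34 (4.79-fold higher in BS, adjusted p = 4.72e-05), and at 13.00 ± 0.20 in HPC. Neither transporter overlapped between HYP and BS. HYP samples varied for Slc17a7, from 6.17 in mouse 30 and 6.69 in mouse 28 to 9.05 in mouse 4, and the lowest BS sample was still above the highest HYP sample.

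Of 21 pan-neuronal and synaptic genes, 14 were higher in HYP and 4 higher in BS (85.7% called, compared with 53.9% of all genes, median 0.30). Those higher in HYP included the postsynaptic scaffolds Dlg4 (PSD-95; 0.65 ± 0.07) and Shank3 (0.69 ± 0.16), the adhesion proteins Nlgn1 and Nlgn2 (0.47 and 0.48), the vesicle proteins Syn2 (0.50) and Syp (0.37), and Rtn4rl1, a Nogo receptor relative (0.88 ± 0.21). Those higher in BS were led by Nefl, the light neurofilament chain that builds the core of thick axons. Nefl was at 10.36, 10.77 and 10.86 in HYP and at 11.93, 12.25 and 12.73 in BS, with no overlap, a difference of -1.67 ± 0.12 (3.18-fold higher in BS, adjusted p = 2.17e-08). The other 3 were Rbfox3 (NeuN; -0.38 ± 0.07), Pacsin1 (-0.33 ± 0.05) and Mapk10 (-0.12 ± 0.04). Rab6b, a neuronal Golgi GTPase (95% CI of the difference -0.14 to 0.14), and Tubb3, the neuronal tubulin (-0.12 to 0.09), lay near 0. With the mean of reference genes subtracted, 11 were higher in HYP and 4 in BS.

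Of 9 forebrain transcription factors and cortical markers, 5 were higher in HYP and 2 in BS (77.8% called, compared with 53.9% of all genes). Over the alternatives the counts were 3 to 5 higher in HYP and 1 to 4 higher in BS, with 4 in BS when reference genes were subtracted and 1 without the BS samples of mice 6 and 28. Besides Dlx1 and Dlx2 these were Tbr1, a factor of cortical projection neurons (4.22 to 5.42 in HYP, 2.92 to 4.27 in BS, near background in both), Mef2c (0.63 ± 0.15) and Nrgn, a postsynaptic calmodulin-binding protein. Nrgn was at 9.90, 10.32 and 10.52 in HYP and at 7.95, 8.43 and 10.19 in BS. The BS samples of mice 4, 10, 12 and 30 were at 9.79 to 10.19 and the other 5 at 7.95 to 8.43, so that the regions overlapped, and the difference was 1.30 ± 0.35 (adjusted p = 0.0054). Reln, a secreted guide of neuronal migration, and Eomes were higher in BS, by 0.62 and 0.84 (differences -0.62 ± 0.16 and -0.84 ± 0.28). Camk4, a calcium-dependent kinase, and Nptx1, a synaptic pentraxin, were not called (adjusted p = 0.0826 and 0.139). The BS sample of mouse 2 was the highest BS sample for Reln (9.78, the others 8.36 to 9.02), Camk4 (11.06, others 9.27 to 9.94), Nptx1 (12.56) and Slc17a7 (10.63), and the lowest for Slc17a6 (12.52). That sample also had the lowest A260/A280 ratio of the BS samples (1.72). Without mouse 2, Slc17a7 differed by -2.33 and Slc17a6 by 0.34.

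Few markers were available to check the dissection: of 9 hypothalamic genes looked for (Pomc, Agrp, Npy, Avp, Oxt, Hcrt, Crh, Trh, Sim1) and 7 brainstem genes (among them Tph2, Slc6a4, Slc6a5, Chat, Dbh and Th), 0 were on the panel. Dlx1, Hdc and Dlx2 are the genes furthest above BS in this same comparison, so they are no independent check of the regional labels. Slc17a6 was abundant in both regions. The labels were taken as given.

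Myelin and oligodendrocyte genes were the most uniform group. Of 24 on the panel, 23 were higher in BS and 1 was not called (95.8% called, compared with 53.9% of all genes, median -0.97). Between the regions 19 of the 24 did not overlap, compared with 24.8% of all genes. The summed log2 level of the list was 226.21 to 238.17 in HYP and 255.72 to 263.71 in BS. The count of 23 was 22 to 24 under the alternatives run. In tumor-bearing mice all 24 were called higher in BS, compared with 28.1% of all genes. HPC was close to HYP, at 8.42 ± 0.18 for Gjb1, 9.24 ± 0.26 for Mag and 8.40 ± 0.22 for Fa2h.

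Among structural proteins of the sheath, Gjb1, connexin 32, which forms channels between myelin layers, was at 8.28, 8.87 and 9.13 in HYP and at 10.37, 10.55 and 10.76 in BS (-1.80 ± 0.12, adjusted p = 8.15e-09). Mag, the myelin protein that faces the axon, was at 9.22, 9.73 and 9.93 in HYP and at 10.75, 11.03 and 11.46 in BS (-1.37 ± 0.10). Mog (-1.20 ± 0.10), Mobp (-1.27 ± 0.08) and Cnp (-0.77 ± 0.05) had the same order, each with no overlap.

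Enzymes of myelin lipids and regulators of the lineage had the same direction. Ugt8a, which makes galactocerebroside, was at 9.95, 10.26 and 10.59 in HYP and at 11.52, 11.65 and 11.86 in BS (-1.43 ± 0.09). Fa2h, which hydroxylates its fatty acids (-1.42 ± 0.09), and Gal3st1, which makes sulfatide (-0.92 ± 0.12), followed. Enpp6, a choline phosphodiesterase of newly forming oligodendrocytes, was at 7.16, 7.38 and 7.71 in HYP and at 8.72, 9.09 and 9.37 in BS (-1.63 ± 0.10, adjusted p = 3.78e-09). The transcription factors Myrf (-1.30 ± 0.07) and Sox10 (-0.86 ± 0.08), both required for myelination, and the receptor Erbb3 (-0.91 ± 0.06) were also higher in BS. Opalin and Pllp overlapped between regions over both phases, since in each region their values at mid-light (Opalin 9.00 to 9.75 in HYP and 10.06 to 10.43 in BS) lay above those at mid-dark (8.10 to 8.68 and 8.82 to 9.07). Within either phase neither gene overlapped.

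Sox10 belongs to the SOX factors, which bind sequences close to ACAAAG and ACAATG. The promoters of 3 list genes are shown because these genes move together towards BS: Enpp6 and Ugt8a have the largest differences among list genes with a single RefSeq window, and Mobp, chosen after the search, holds the most matches. The windows are the 250 bases before the start in GRCm38.p6, chr8:46986637-46986886 (plus strand), chr3:125938653-125938902 (minus strand) and chr9:120149492-120149741 (plus strand), with ACAAAG or ACAATG on either strand in capitals.
Enpp6: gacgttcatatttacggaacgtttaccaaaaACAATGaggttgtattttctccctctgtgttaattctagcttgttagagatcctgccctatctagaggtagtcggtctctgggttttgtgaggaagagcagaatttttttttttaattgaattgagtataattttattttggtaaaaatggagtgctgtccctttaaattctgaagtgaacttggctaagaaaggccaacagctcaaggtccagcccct
Ugt8a: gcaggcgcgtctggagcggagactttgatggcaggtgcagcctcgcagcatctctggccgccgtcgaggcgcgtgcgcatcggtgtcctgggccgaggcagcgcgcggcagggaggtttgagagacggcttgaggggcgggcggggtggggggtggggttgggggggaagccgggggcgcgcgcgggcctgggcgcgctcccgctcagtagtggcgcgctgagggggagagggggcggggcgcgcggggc
Mobp: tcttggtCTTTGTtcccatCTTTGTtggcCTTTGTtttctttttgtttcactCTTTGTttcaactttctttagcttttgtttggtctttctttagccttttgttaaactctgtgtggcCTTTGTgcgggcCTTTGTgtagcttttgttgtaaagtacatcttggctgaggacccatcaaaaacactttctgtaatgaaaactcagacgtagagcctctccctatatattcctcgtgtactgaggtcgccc
Mobp holds 6 matches, all on the opposite strand as CTTTGT, Enpp6 holds 1 and Ugt8a 0. Of the 19 list genes with a window, 10 (52.6%) held a match, compared with 28.2% of all genes and 24.8% of panel genes with a window. A match is a string of letters and not a measured site, and the motif pair was chosen with the direction of Sox10 known.

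**Figure D3:**
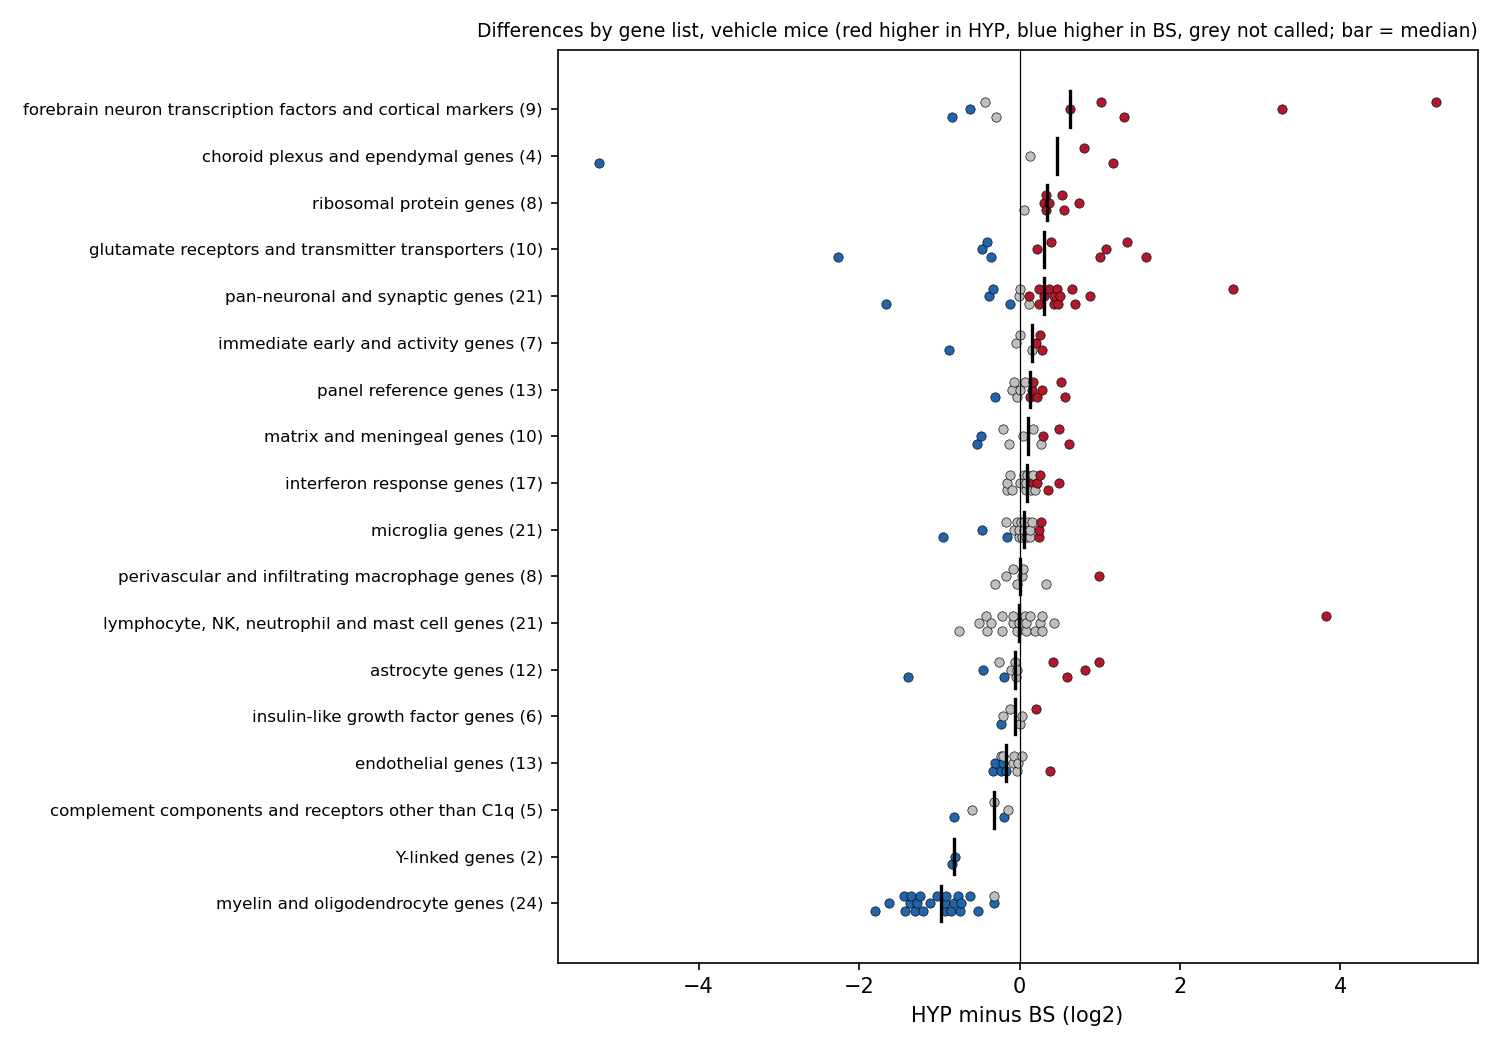
Differences between HYP and BS (x axis, log2) by gene list (rows, with the number of genes on the panel) in vehicle mice; each point is a gene, red if higher in HYP, blue if higher in BS and grey if not called, and the black bar is the median of the list. The myelin list has the lowest median (-0.97), and single genes such as Hdc (3.82) and Ttr (-5.24) lie far from the rest of their lists.

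The gene furthest above HYP in BS was Ttr, transthyretin, the thyroid hormone carrier secreted by the choroid plexus, and it was also the most variable. It was at 4.79, 5.08 and 5.20 in HYP, close to background, and at 6.49, 9.99 and 13.77 in BS. In BS it was 13.04 to 13.77 in mice 10, 22 and 30, 8.21 to 10.05 in the 4 mid-dark mice, 9.42 in mouse 2 and 6.49 in mouse 6, all above every HYP sample. The difference was -5.24 ± 0.85 (adjusted p = 0.00011) and ranged from -6.08 to -4.74 over the alternatives, and within single mice from -8.69 to -1.35. HPC was as variable (6.62 to 14.71). The other choroid plexus and ependymal genes did not follow Ttr: Trp73 (0.81 ± 0.14) and Epcam (1.17 ± 0.39) were higher in HYP and Spint1 was not called. Epcam, an epithelial adhesion protein, varied in HYP, from 3.46 in mouse 2 to 7.84 in mouse 4, and lost its call without mouse 4, 22 or 30 (adjusted p = 0.0842, 0.0615 and 0.0509) and with the mouse as a fixed term (0.125).

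Spp1, osteopontin, a secreted phosphoprotein that binds integrins, was the next furthest. It was at 7.98, 8.94 and 9.33 in HYP and at 12.14, 12.44 and 12.67 in BS. The gap between the regions exceeded the whole range of either, and the difference was -3.68 ± 0.18 (12.8-fold higher in BS, adjusted p = 7.79e-10), with HPC at 7.38 ± 0.46. Spp1 is made by activated microglia as well as by some neurons, and the microglia list did not move with it. Genes past a difference of 1 in BS outside these lists, named after their values were seen, included the co-chaperone Bag3 (7.29 to 8.08 in HYP, 8.55 to 9.06 in BS; -1.16 ± 0.08) and the inflammatory caspase Casp1 (5.14 to 5.87 and 6.37 to 6.99; -1.14 ± 0.10), both without overlap.

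Microglia genes differed little. Of 21 on the panel, 15 were not called, 3 were higher in HYP and 3 in BS (28.6% called, compared with 53.9% of all genes). The median was 0.05, and the summed level was 176.78 to 180.66 in HYP and 174.76 to 180.37 in BS. Tyrobp, the signalling adaptor of Trem2, had a difference with a 95% CI of -0.14 to 0.14, and the C1q chains differed by 0.02 to 0.11, none called. Tmem119 (0.27 ± 0.06), P2ry12 (0.24 ± 0.07) and Cx3cr1 (0.24 ± 0.06), genes of resting microglia, were slightly higher in HYP, and 0 of the 3 stayed called with reference genes subtracted or with the mouse as a fixed term. Sall1, a factor of microglial identity, was at 9.11 to 9.42 in HYP and 9.45 to 9.99 in BS, without overlap (-0.47 ± 0.06, adjusted p = 1.58e-05). Complement C3 was higher in BS (5.93 to 7.55 in HYP, 7.02 to 7.75 in BS; -0.82 ± 0.17), and C4a, whose near-identical copy C4b it may be read with, differed by -0.19 ± 0.07, a call lost without mouse 4, 6, 28 or 30. Of the 5 complement genes on that list, 2 were higher in BS (40% called, compared with 53.9% of all genes), and 5 were with reference genes subtracted.

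Astrocyte genes split into both directions: 4 of 12 were higher in HYP, 3 in BS and 5 were not called (58.3% called, near the 53.9% of all genes). The 7 called genes did not overlap between regions, which is 58.3% of the 12 on the list, compared with 24.8% of all genes. With reference genes subtracted, 7 were higher in BS. Slc1a3 (GLAST), the glutamate transporter of astrocytes, was at 13.61, 13.90 and 13.90 in HYP and at 12.39, 12.83 and 13.25 in BS (0.99 ± 0.09, adjusted p = 5.02e-07). Agt, the angiotensin precursor, was at 11.12 to 11.52 and 10.27 to 10.69 (0.81 ± 0.08), with HPC lower than both (7.94 ± 0.31). Gdpd2 (0.59 ± 0.07) and Entpd2, which cleaves extracellular ATP (0.42 ± 0.08), were also higher in HYP. S100b, a calcium-binding protein of astrocytes that oligodendrocytes also make, was at 11.63, 11.71 and 11.96 in HYP and at 13.04, 13.11 and 13.19 in BS. This was a difference of -1.39 ± 0.05 (adjusted p = 2.15e-11). Kcnj10, the Kir4.1 potassium channel found in both glial types, was higher in BS by 0.45 (-0.45 ± 0.04). The connexin Gja1 (95% CI -0.17 to 0.06) and the transcription factor Sox9 were not called.

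Of 13 endothelial genes, 5 were higher in BS, 1 in HYP and 7 not called (46.2% called, compared with 53.9% of all genes), with all called differences under 0.5. Tie1, a receptor of vessel maturation, differed by -0.33 ± 0.07 and Pecam1 by -0.23 ± 0.08, whereas Tm4sf1 was higher in HYP (0.37 ± 0.04, no overlap). Tie1 lost its call with the mouse as a fixed term (adjusted p = 0.0545), and Ly6a without mouse 28 (0.057). Cldn5, the claudin of the blood-brain barrier, was not called. The count higher in BS was 9 with reference genes subtracted and 2 with the mouse as a fixed term.

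Most genes of blood leukocytes read low. Of 21 lymphocyte, NK cell, neutrophil and mast cell genes, 19 had a mean under 5 and 1 was called, Hdc, described above (4.76% called, compared with 53.9% of all genes). Csf3r, the G-CSF receptor of neutrophils, was above the range of the Y-linked genes in every sample (5.77 to 6.20 in HYP, 5.41 to 6.58 in BS) and was not called. Of 8 perivascular and infiltrating macrophage genes 1 was called (12.5%, compared with 53.9% of all genes). It was the scavenger receptor Cd36, at 6.20 to 7.04 in HYP and 5.59 to 6.21 in BS (0.99 ± 0.11). Of 17 interferon response genes, 5 were slightly higher in HYP and 0 in BS, Rsad2 the most (0.49 ± 0.13). The share called was 29.4%, compared with 53.9% of all genes, and the median was 0.09. With reference genes subtracted, 1 was higher in HYP and 3 in BS, so this list has no firm direction.

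Activity genes were mixed, with 4 of 7 called (57.1%, near the share over all genes). Arc, which is induced by synaptic activity, was at 7.47, 7.50 and 7.59 in HYP and at 8.14, 8.37 and 8.69 in BS (-0.88 ± 0.05, adjusted p = 9.92e-10), and at 10.21 ± 0.39 in HPC. Fos, Egr1 and Atf3 were not called, and Jun, Bdnf and Maff were higher in HYP by 0.21 to 0.28, of which 0 stayed called with reference genes subtracted. Of 10 matrix and meningeal genes, 50% were called, near the 53.9% of all genes. In HYP 3 were higher, led by Igsf10 (0.61 ± 0.09), and with reference genes subtracted 1 stayed so. In BS 2 were higher, Serpinf1 (-0.52 ± 0.07) and Col6a3 (-0.48 ± 0.10). Of 6 insulin-like growth factor genes, Igf2r (0.21 ± 0.07) and Akt2 (-0.23 ± 0.09) were called, in opposite directions (33.3%, compared with 53.9% of all genes). Akt2 lost its call under 12 and Igf2r under 5 of 21 alternatives.

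Ribosomal protein genes were higher in HYP in 7 of 8 cases (87.5% called, compared with 53.9% of all genes, median 0.35). With reference genes subtracted, 6 stayed so. Rpl9 was at 13.15 to 13.33 in HYP and 12.59 to 12.80 in BS (0.53 ± 0.04), and Rps2 read the same value, 14.23, in all 7 HYP samples and 13.41 to 13.61 in BS. Such ties come from quantile normalization at the top of the scale and make the spread of the most abundant genes look smaller than it was. Of the 13 panel reference genes, meant as stable controls, 7 were higher in HYP, 1 in BS and 5 not called. The share called was 61.5%, compared with 53.9% of all genes, and the median was 0.12. Cnot10 (0.56 ± 0.05) and Tbp (0.51 ± 0.07) were the highest and Aars (-0.31 ± 0.05) the lowest.

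Regional differences were called in each phase. At mid-dark 291 genes (37.8%) and at mid-light 349 (45.3%) were called, and all 415 genes called over both phases had the same sign in each. Those 415 genes were selected on the average of the same phase differences, so their agreement in sign is largely built in. The interaction of region and phase gave 0 genes at an adjusted p under 0.05 in limma and 22 (2.86%) at an unadjusted p under 0.05 (smallest adjusted p = 0.392). The lowest unadjusted p values were those of Slc2a5, the fructose transporter of microglia (0.09 ± 0.11 at mid-dark, 0.74 ± 0.09 at mid-light), Trp73 (1.27 ± 0.22 and 0.34 ± 0.19) and Mmp12 (-1.31 ± 0.31 and -0.01 ± 0.27). None of these 3 interactions passed the adjustment.

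The same comparison in the tumor-bearing mice, which share no sample with the vehicle mice, called 476 genes (61.8%), 260 higher in HYP (33.8%) and 216 higher in BS (28.1%). Of these, 382 were called with the same sign in vehicle mice, 92% of the vehicle calls and 80.3% of the tumor calls, and 0 with the opposite sign. The differences of Dlx1 (4.67 ± 0.22), Hdc (3.91 ± 0.21), Spp1 (-3.67 ± 0.12), Nefl (-1.70 ± 0.10) and S100b (-1.39 ± 0.05) were close to those in vehicle mice. Ttr (-6.07 ± 0.84) and Slc17a7 (-3.18 ± 0.38) differed by more, and the difference between the 2 sets of mice (0.85 ± 1.27 and 0.92 ± 0.55) did not pass the interaction test. The interaction of region and tumor gave 0 genes at an adjusted p under 0.05 in limma and 19 (2.47%) at an unadjusted p under 0.05 (smallest adjusted p = 0.998), of which Psmb8, a subunit of the immunoproteasome (0.06 in vehicle and 0.33 in tumor-bearing mice), Tgm1 (0.93 and -0.05) and E2f1 (-0.58 and -1.13) had the lowest unadjusted p values.

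**Figure D4:**
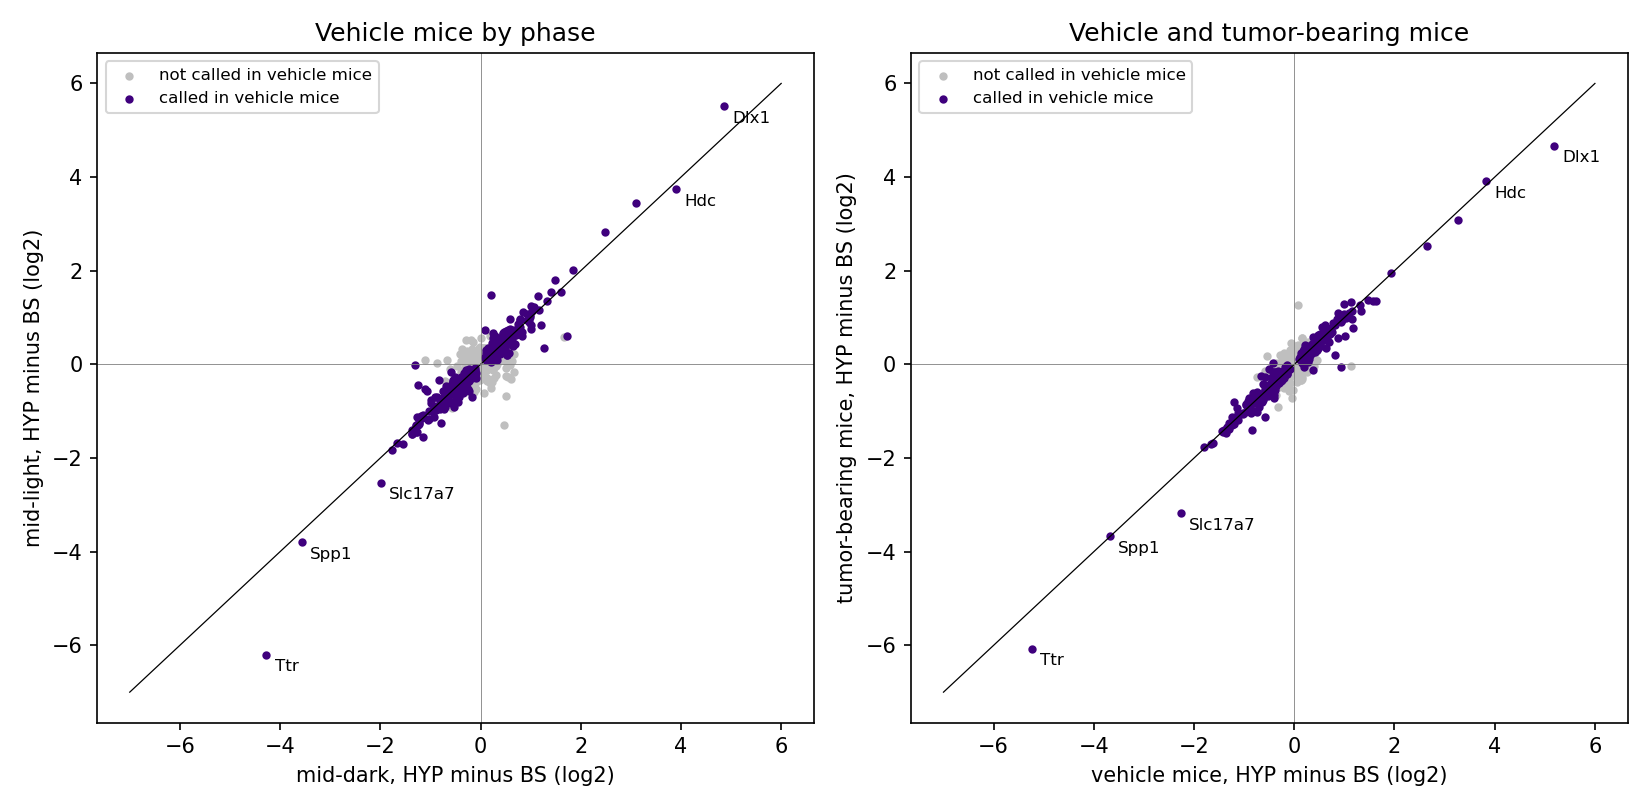
Left, differences between HYP and BS at mid-light (y axis) against mid-dark (x axis) in vehicle mice; right, differences in tumor-bearing (y axis) against vehicle mice (x axis), all log2; each point is one of 770 genes, purple if called in vehicle mice, and the line marks equal values. Called genes lie along the line in both panels, and no gene called in both vehicle and tumor-bearing mice has opposite signs.

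HPC from the same vehicle mice places these differences among 3 regions, as a description without a test. Of the 225 genes higher in HYP, HPC was higher still for 82, between for 76 and below BS for 67. Of the 190 higher in BS, HPC was below HYP for 114, between for 52 and higher still than BS for 24. The first set included Islr2, Hrk, Grin2b, Bok and Nrgn (HPC 13.53 ± 0.17), the genes with HPC lowest included Hdc and Agt, and Slc17a7 and Arc were highest in HPC although they were higher in BS than in HYP. Spp1 and the myelin genes named above were highest in BS.

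**Figure D5:**
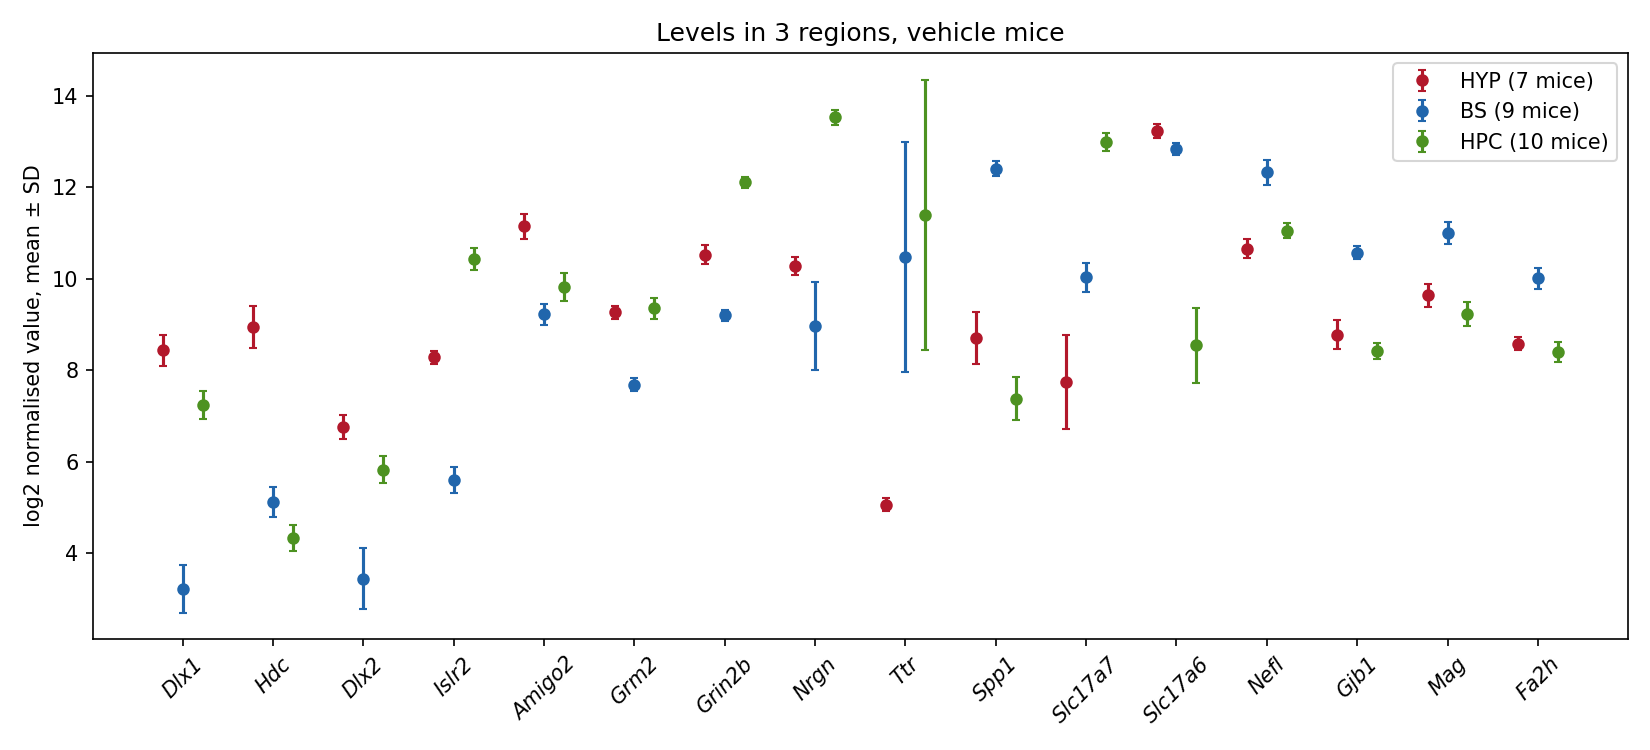
Levels (y axis, log2 normalised value) of 16 genes in HYP (red, 7 mice), BS (blue, 9 mice) and HPC (green, 10 mice) of vehicle mice; points are means and bars are SD. Hdc is high in HYP alone, Spp1, Nefl and the myelin genes Gjb1, Mag and Fa2h are highest in BS, and Slc17a7 is highest in HPC and lowest in HYP.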

How the data were processed

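RNA from dissected brain regions was assayed by the authors with the nanoString panel and normalized in nSolver by background subtraction, positive control and codeset content normalization, then quantile normalized in Partek. What the authors deposited, and what was used here, is 1 log2 normalized expression value per gene and sample (770 genes; a blank row was dropped). Counts were not used, so the depth is unknown, and precision depends on how many mice there are. The labels give region, treatment, phase and mouse; each mouse is 1 replicate.

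In R 4.3.3 with limma 3.58.1, a mean was fitted for each of 4 groups (region by phase) with the mouse as a random block (duplicateCorrelation, 12 residual degrees of freedom). HYP minus BS was averaged over both phases, and a gene was called at an adjusted p under 0.05 (moderated test, Benjamini-Hochberg over 770 genes). The phase interaction came from this fit of the vehicle samples. The tumor interaction came from a separate fit to the HYP and BS samples of both treatments, with a mean for each combination of region, treatment and phase. The comparison within tumor-bearing mice was also fitted separately. Pairing comes from the mouse number: the 2 regions of a mouse are from 1 animal, and their deviations from the group means correlated at 0.004 to 0.158 over 6 mice (consensus correlation 0.118). The fit was tested on simulated data.

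The comparison, the gene lists and the tests were chosen with earlier results of these data known, and the lists of Bcl2 family and methylation enzyme genes after the values were seen. Named genes are the 10 with the largest called difference in each direction that kept their sign in all 6 mice, up to 3 called members and the least different member of each list, the region markers, the 3 lowest p values of each interaction, and abundant genes not called; others are named as list members. Promoter windows are RefSeq's (GRCm38.p6); 763 panel symbols matched its gene table and 601 had a window. Figures were drawn with Python 3.11.15 and matplotlib 3.10.9. Alternatives were the block, the scale, a filter on low means, the threshold, sample weights and each mouse left out, and, chosen after seeing the data, leaving out BS samples of low RNA concentration (mice 6 and 28) or low A260/A280 (mice 2 and 30). Some genes of the panel are not reported here.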

Additional observations from a re-analysis of the deposited data

Results flagged for a closer look

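Values of the named genes were screened for single samples far from the other samples of their region and phase, in 254 groups of 4 or 5 samples. Chance alone would mark about 1 in 20 groups, and 20 were marked. In BS at mid-light, mouse 10 was low for Dlx2 (1.86561, the others 3.43 to 4.04) and for Kdm5d (3.99501), mouse 22 for Tie1 (7.35847) and mouse 30 for Mmp12 (3.5456). The BS of mouse 2 stood apart for 3 neuronal genes, high for Nptx1 (12.5571, the others 11.48 to 11.76) and low for Slc17a6 (12.5236, the others 12.87 to 12.94) and Tbr1 (3.70367, the others 4.13 to 4.27), and it was also high for Ezh2 (10.0012, the others 9.48 to 9.62). In BS at mid-dark, mouse 28 was low for Hrk (5.42278) and Gzmb (2.7881) and high for Ms4a4a (5.16771), mouse 12 was low for Spint1 (3.77532), and mouse 32 was low for Uty (4.69971). In HYP at mid-light, mouse 22 was low for Atf3 (4.72368, the others 5.64 to 5.69) mouse 6 high for C3ar1 (6.48026), and mouse 30 high for Suv39h1 (10.3224, the others 9.95 to 10.00).

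The remaining 4 are steps of the quantile scale, where the other samples of the group share 1 value: Rps2 in BS of mouse 4 (13.4998) and Rps21 in BS of mouse 32 (14.3528), and Calr in HYP of mouse 2 (13.6797) and in BS of mouse 4 (13.8971).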

How the results depend on the processing

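Over all alternatives the count of genes called between regions was 339 to 421 (415 in the fit reported), and leaving out each mouse gave 375 to 412. The same ranges were 162 to 306 at mid-dark (leaving out a mouse, 200 to 306), 268 to 367 at mid-light (290 to 355) and 385 to 489 in tumor-bearing mice (443 to 484), and both interactions stayed at 0 throughout. With no replicate block, 401 genes were called, and with the mouse as a fixed block, which keeps only the 6 paired mice, 344, of which 329 were among the 415. At mid-dark the fixed block called 162 genes in place of 291; it has 2 paired mice in that phase. Among named genes, Tmem119, Tie1, Epcam, Gbp2, Igf2r, Mmp12 and E2f1 lost their call with the fixed block (adjusted p 0.0545 to 0.136) and Akt2 without a block (0.0612); no called gene among them changed sign with either.

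Of 86 named genes, 66 had the same call under every alternative, 15 lost it under at least 1 and 4 gained one. Pik3r1, not called in the fit reported, took the opposite sign with reference genes subtracted (-0.1192). A difference of at least 1 beside the adjusted p left 46 of the 415 genes (5.97%). Both regions hold few mice, values at the top of the quantile scale are compressed, and low values are limited by background.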

Other observations

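Genes of histone and DNA methylation, a list put together after the values were seen, were mostly higher in HYP: 21 of 33 on the panel were higher in HYP, 3 in BS and 9 not called (72.7% called, compared with 53.9% of all genes; median 0.22). With reference genes subtracted, 11 were higher in HYP and 6 in BS, so the small differences in this list depend on the scale. Suv39h1, a histone H3 methyltransferase of heterochromatin, was at 9.81, 10.00 and 10.32 in HYP and at 8.71, 8.88 and 9.09 in BS (1.15 ± 0.07, adjusted p = 5.37e-09). Ehmt2 (0.67 ± 0.05) and the demethylase Kdm5b (0.52 ± 0.06) had the same direction without overlap. Ezh2, the enzyme of Polycomb complex 2, went the other way, at 8.66 to 9.08 in HYP and 9.41 to 10.00 in BS (-0.69 ± 0.08, adjusted p = 3.48e-06), while its partner Suz12 was higher in HYP (0.24 ± 0.05) and Eed was not called. The related enzyme Ezh1 was not called.

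Among 15 Bcl2 family genes, a list also put together after the values were seen, Bid joined Hrk and Bok: it was higher in HYP by 0.66 ± 0.06 and Bcl2 by 0.36 ± 0.05, and the mitophagy receptors Bnip3 (-0.19 ± 0.05) and Bnip3l (-0.28 ± 0.04) were higher in BS. In the list as a whole 5 were higher in HYP, 3 in BS and 7 not called (53.3% called, median 0.05), near the share over all genes, and with reference genes subtracted 4 and 5.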
